A study of Mus musculus with 8 samples.

Results

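B lymphocyte genes were followed in cultured preparations of mouse gut intraepithelial lymphocytes (IEL), the leukocytes that lie between the epithelial cells of the intestinal lining. They form a list of B cell identity genes chosen by name, Ms4a1, Cd79a, Cd79b, Pax5, Ebf1, Cd22, Cr2, Blk and Fcer2a, and the rule sets no threshold on any measured value. They are 9 of the 52661 genes in the tables, and all 9 were found by symbol. Cells of C57BL/6 mice had been sorted by flow cytometry on CD45, a protein on the surface of all leukocytes, and cultured for 24 h in RPMI medium with 10% serum. The osteopontin group (4 libraries) received 2 µg/ml of osteopontin, a secreted glycoprotein that binds integrins and CD44, and the null group (4 libraries) received none. Sorting, medium, serum and culture time were common to both groups. The libraries of each group are named 1, 2, A and B. The labels give neither age nor sex of the mice and do not tie any library to an animal or a culture. The p-values therefore speak only of how much these libraries differ, and part of that difference may be technical.

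B lymphocytes recognise antigen with a membrane immunoglobulin that signals through a dimer of CD79A and CD79B. The transcription factors EBF1 and PAX5 commit lymphoid progenitors to the B lineage and keep its genes active, and both are lost or lowered when a B cell becomes a plasma cell. In the gut, B cells lie mainly in Peyer's patches and isolated lymphoid follicles and plasma cells in the lamina propria, whereas the intraepithelial compartment is made up mostly of T cells.

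The deposited tables held between 49108969 and 71399847 estimated reads per library, and a count of 3 reads corresponded to between 0.042 and 0.0611 CPM (reads scaled to a common library total), a floor that covers counting error only. The 12 T cell and IEL markers, Cd3e, Cd8a and Itgae among them, summed to 5275 ± 122 CPM with osteopontin and 5126 ± 235 CPM in the null group (SD, n = 4 each), and the 12 immunoglobulin constant genes, most of it Igha, to 6616 ± 2140 and 6991 ± 2520 CPM. Osteopontin library B stood apart from the other 3 osteopontin libraries in several gene groups. Its plasmacytoid dendritic cell genes summed to 14.1 CPM against 116.8 to 151.1 CPM, and its pericyte and smooth muscle genes to 8.92 CPM against 1.71 to 2.27 CPM. Null libraries 1 and A carried fibroblast genes at 336.5 and 185.6 summed CPM, against 6.89 to 25.98 CPM in the other 6 libraries.

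Promoter sequence from RefSeq (build GRCm38.p6) was matched to 6 of the 9 genes, Cd79a, Cd22, Pax5, Ebf1, Cr2 and Fcer2a, as windows from 250 bases before to 50 bases after each start site. The stretches of the Cd79a and Cd22 windows outside annotated exons are shown because each holds letters of an EBF1 motif, and EBF1 is the product of another gene of the list. The first lies upstream of Cd79a at chr7:24897247-24897380 (plus strand) and the second at chr7:30879029-30879176 (minus strand), upstream of the start of the transcript Cd22-201 and within an intron of longer Cd22 transcripts. Capitals mark CAAGGGA (a short EBF1 motif) and CAGGTG (an E-box of the E2A type) in Cd79a, and CCCTGGGG, a match to the EBF1 core CCCNNGGG, in Cd22.
Cd79a: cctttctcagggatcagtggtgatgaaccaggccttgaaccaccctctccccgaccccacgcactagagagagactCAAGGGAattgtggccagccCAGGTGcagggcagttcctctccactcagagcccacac
Cd22: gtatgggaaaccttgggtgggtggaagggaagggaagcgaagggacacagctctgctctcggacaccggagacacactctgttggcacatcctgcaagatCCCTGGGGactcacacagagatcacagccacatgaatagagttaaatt
Counted from the RefSeq start site, the Cd79a motifs begin at -174 and -154 and the Cd22 motif at -48, and none overlaps another. Both strands were searched. Among 32851 promoter windows of the same length, 13.7% held CCCNNGGG, 5.06% held CAAGGGA and 20.2% held CAGGTG. The E-box letters were also found elsewhere in the Cd22 window, in that of Cr2 and in 1 window of Fcer2a. The octamer ATTTGCAT (1.74% of windows) and the PU.1 motif GAGGAAGT (3.2%) had no match in any window of these 6 genes. The motifs were chosen after the sequences had been seen, and a match is a description of letters only.

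Cd79a and Cd79b encode the signalling dimer of the B cell receptor. Cd79a (chromosome 7, 24897381 to 24902197, plus strand, GRCm38 with GENCODE M21) had 222.8 CPM in osteopontin library 1, 139.7 in library 2, 175.6 in library A and 73.22 in library B, and 207.7, 189.3, 200.8 and 219.8 CPM in the correspondingly named null libraries (all values that follow keep this order). The null libraries lay close together, whereas the osteopontin libraries held both the highest value (library 1) and the lowest (library B) of the 8, so the groups overlapped. The log2 fold change of Cd79a, osteopontin over null, was -0.42 (SE 0.32, 95% interval -1.21 to 0.37). Cd79b (chromosome 11, 106311341 to 106314762, minus strand) measured 139.2, 98.48, 112.4 and 66.26 CPM with osteopontin and 128.7, 113.8, 134.5 and 133.7 CPM without. Again osteopontin library 1 was highest and library B lowest. For Cd79b the log2 fold change was -0.30 (SE 0.21, 95% interval -0.79 to 0.19). In bulk RNA such as this, fewer B cells in a preparation and less of a transcript per B cell cannot be told apart, for these genes and for all that follow.

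Pax5 and Ebf1 encode the factors that set and hold B cell identity. Pax5 (chromosome 4, 44524757 to 44710487, minus strand) measured 99.74, 68.33, 77.82 and 28.26 CPM with osteopontin and 97.37, 64.2, 93.77 and 103.2 CPM without. Osteopontin library B was lowest and null library 2 next lowest, and the remaining libraries of the groups overlapped. For Pax5 the log2 fold change was -0.39 (SE 0.39, 95% interval -1.32 to 0.54). Ebf1 (chromosome 11, 44617317 to 45008091, plus strand) stood at 21.77, 16.7, 18.09 and 9.38 CPM with osteopontin and at 24.88, 19.05, 20.42 and 29.09 CPM in the null group. Osteopontin library 1 was the only osteopontin library above any null library. The log2 fold change of Ebf1 was -0.50 (SE 0.23, 95% interval -0.99 to -0.02), and its unadjusted p of 0.0412 in edgeR became an adjusted p of 1.00 over all genes tested. EBF1 is also made by fibroblasts and pericytes. In null library B, where Ebf1 was highest, the fibroblast genes summed to 6.89 CPM, the lowest of the 8 libraries, and the pericyte and smooth muscle genes to 7.66 CPM, above null libraries 1 (5.06 CPM) and A (5.66 CPM) and below null library 2 (11.83 CPM). Without null libraries 1 and A the log2 fold change of Ebf1 was -0.56, and the part of either cell type in the Ebf1 level was not tested.

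Ms4a1, Cd22 and Blk act at or near the B cell receptor: Ms4a1 encodes the surface protein CD20, Cd22 a sialic acid binding receptor that restrains receptor signalling, and Blk a Src family kinase. Ms4a1 (chromosome 19, 11249675 to 11266241, minus strand) measured 98.09, 72.85, 70.92 and 32.31 CPM with osteopontin and 100.8, 87.99, 84.37 and 120.5 CPM without. Only osteopontin library 1 reached the range of the null libraries. Ms4a1 had a log2 fold change of -0.52 (SE 0.33, 95% interval -1.33 to 0.28). Cd22 (chromosome 7, 30865402 to 30880342, minus strand) stood at 148.1, 97.27, 111.9 and 40.95 CPM with osteopontin and at 155.9, 102.1, 139.8 and 183.7 CPM in the null group. Osteopontin library B was lowest and null library B highest, and the values in between were interleaved. The log2 fold change of Cd22 was -0.55 (SE 0.40, 95% interval -1.53 to 0.43). Blk (chromosome 14, 63372836 to 63417037, minus strand) stood at 50.12, 31.33, 42.16 and 31.75 CPM with osteopontin and at 50.44, 35.22, 54.2 and 59.54 CPM in the null group. Blk was the only gene of the list that was not lowest in osteopontin library B, being slightly lower in osteopontin library 2. Blk had a log2 fold change of -0.36 (SE 0.18, 95% interval -0.75 to 0.03). BLK is also expressed by plasmacytoid dendritic cells and by interleukin-17 producing gamma-delta T cells. In osteopontin library B the genes of the first summed to 10.7% of the mean of the other 3 osteopontin libraries and those of the second to 97.9%, and the part of either in the Blk level was not tested.

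Cr2 and Fcer2a are expressed by mature B cells. Cr2 encodes the complement receptors CD21 and CD35, and Fcer2a encodes CD23, the low-affinity receptor for immunoglobulin E. Cr2 (chromosome 1, 195136811 to 195176716, minus strand) measured 15.54, 13.09, 11.6 and 3.99 CPM with osteopontin and 19.38, 13.35, 14.19 and 23.26 CPM without. The single osteopontin library within the null range was library 1. The log2 fold change of Cr2 was -0.67 (SE 0.36, 95% interval -1.46 to 0.13), the most negative of the 9. Fcer2a (chromosome 8, 3681737 to 3694175, minus strand) stood at 33.56, 17.21, 27.57 and 6.46 CPM with osteopontin and at 29.32, 16.96, 23.5 and 35.07 CPM in the null group. Apart from the low osteopontin library B, the Fcer2a values of the groups covered nearly the same range. Fcer2a had a log2 fold change of -0.31, with the widest interval of the list (SE 0.51, 95% interval -1.52 to 0.90). Follicular dendritic cells also carry CD21 and CD23. Of the 5 genes of their list, Cxcl13 had 0 reads in all 8 libraries, Coch, Madcam1 and Enpp2 reached at most 0.0305, 0.549 and 1.98 CPM, and Mfge8, which other cell types also make, lay between 28.43 and 47.21 CPM. The part of such cells in the Cr2 and Fcer2a levels was not tested.

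**Figure D1:**
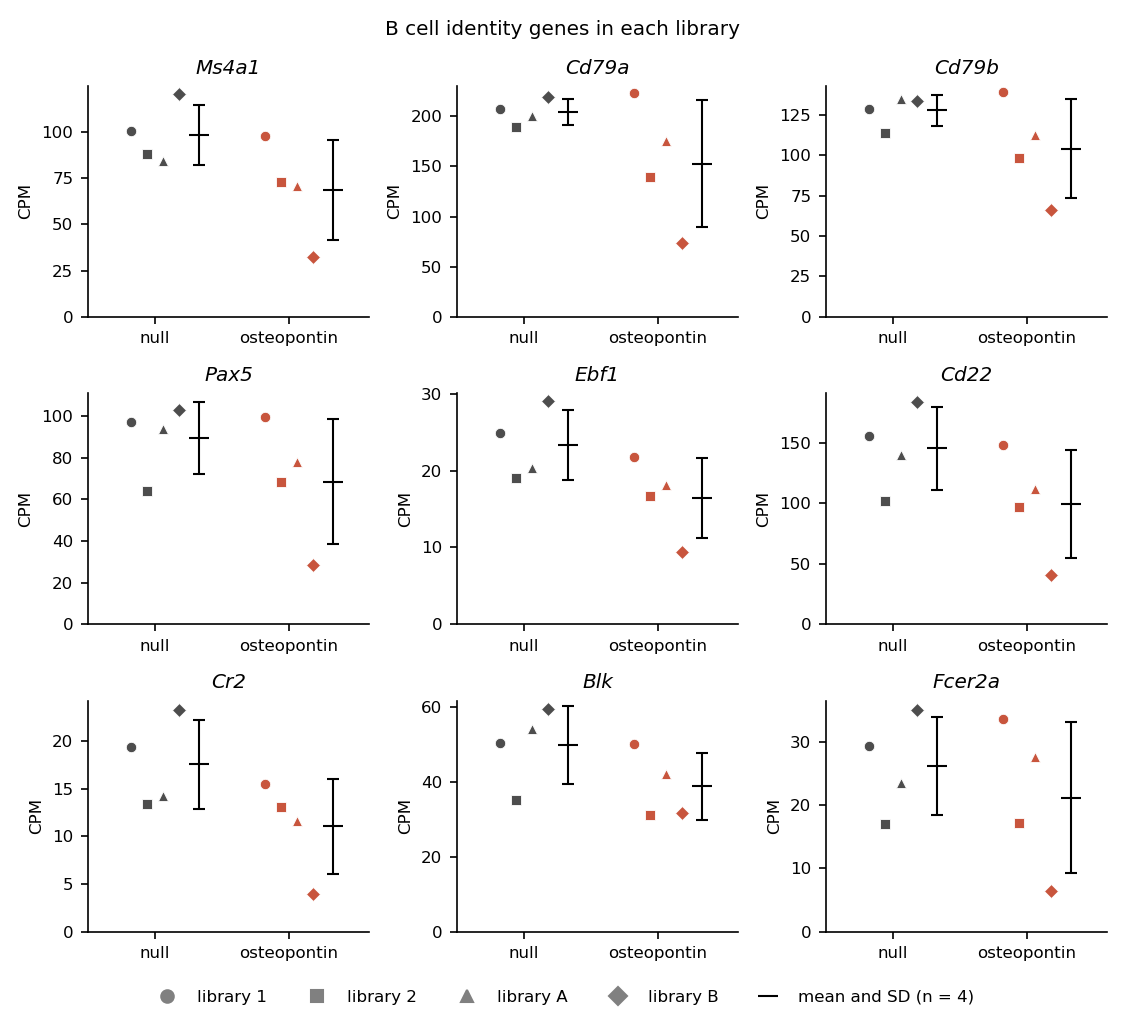
CPM (vertical axis, linear from 0) of each of the 9 genes in the 4 null (grey) and 4 osteopontin (red) libraries, one panel per gene; the point shape gives the library name and the bars the mean and SD (n = 4). Osteopontin library B (red diamond) is the lowest point for 8 of 9 genes, and in no panel do the groups separate completely.

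Across the list, all 9 genes had a lower fitted level with osteopontin, where 49.9% of the 18631 tested genes did, and the median log2 fold change was -0.42 against 0.0 over all genes tested and -0.01 over the 7239 genes within the members' range of levels. None of the 9 was called by the quasi-likelihood test of edgeR at a Benjamini-Hochberg adjusted p under 0.05: every adjusted p was 1.00. The same test called 0.0% of all genes (0 of 18631; smallest adjusted p 0.47). Ebf1 was the only member with an unadjusted p under 0.05, 1 of 9, where 3.93% of all genes (732) had one. In no member did all osteopontin libraries lie below all null libraries, a separation seen in 1.58% of all genes. DESeq2 called 0.392% of 20434 genes (21 higher, 59 lower) and none of the 9, whose smallest adjusted p in DESeq2 was 0.668, and limma voom called 0 genes. The members varied together between libraries, so the count of 9 of 9 is not made of separate observations.

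The size of the difference rested in large part on osteopontin library B. Relative to the mean of the other 3 osteopontin libraries, its level was 24.7% for Fcer2a, 29.8% for Cr2, 34.4% for Cd22 and 34.5% for Pax5. It was 40.1% for Ms4a1, 40.8% for Cd79a, 49.8% for Ebf1, 56.8% for Cd79b and 77.0% for Blk. These percentages place Fcer2a and Cr2 lowest and Blk nearest to the other libraries. Without osteopontin library B the fitted level of all 9 was still lower with osteopontin, with a median log2 fold change of -0.28. Single values without it ran from -0.39 for Cr2 and -0.31 for Ebf1 to -0.13 for Cd79b and Pax5 and -0.01 for Fcer2a, and the smallest unadjusted p in edgeR was 0.0736 (Ms4a1). Without both B libraries the median was -0.15 and 8 of 9 were lower, Fcer2a having a log2 fold change of 0.17. Without osteopontin library 1, the highest osteopontin library for all 9 genes, the median was -0.66. The smallest unadjusted p in edgeR was then 0.009 (Blk), with 0.883 as the lowest adjusted p. Over all genes, edgeR called 2 genes higher and 35 lower without osteopontin library B and 1 higher and 48 lower without both B libraries, and no member was among them in either case.

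**Figure D2:**
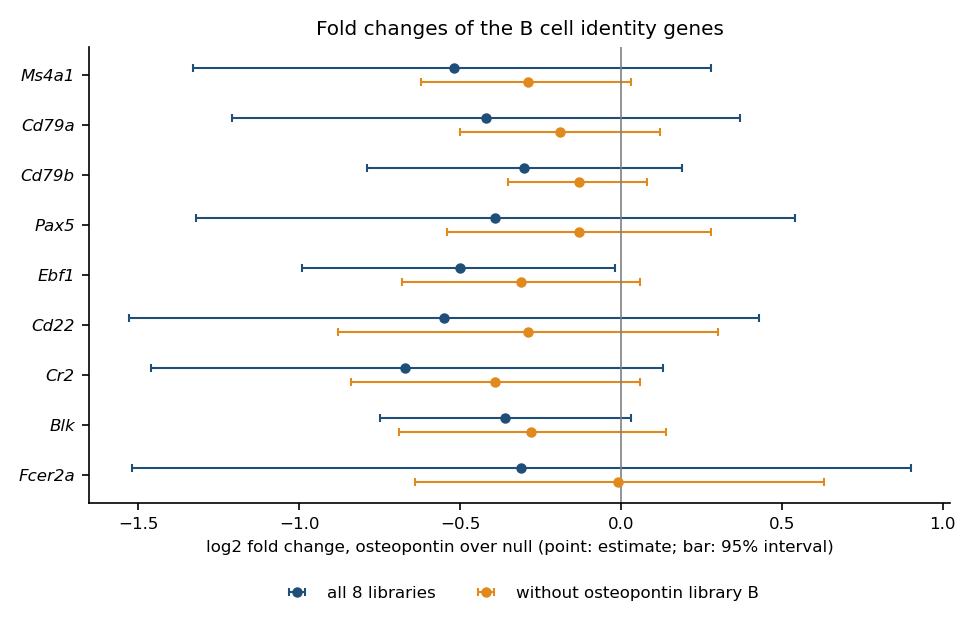
Log2 fold change, osteopontin over null (horizontal axis; point, estimate; bar, 95% interval of the edgeR fit), of each of the 9 genes with all 8 libraries (blue) and without osteopontin library B (orange). All estimates with 8 libraries lie left of 0, between -0.67 and -0.30, and each moves toward 0 without that library.

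Summed over the list, the members reached 829, 555, 648.1 and 292.6 CPM with osteopontin and 814.5, 642, 765.5 and 907.9 CPM without, in the order 1, 2, A and B. Osteopontin library B was far below the rest, and the other 3 osteopontin libraries lay among or near the null libraries. The group means were 581.2 ± 224 CPM with osteopontin and 782.5 ± 111 CPM in the null group (SD, n = 4 each), a log2 ratio of -0.43. Leaving out single libraries gave log2 ratios from -0.65 (without osteopontin library 1) to -0.21 (without osteopontin library B). The SD of the osteopontin group exceeded the difference between the means.

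Levels of different genes were compared as TPM, which corrects for transcript length. Short annotated transcripts with few reads raise this measure for several members, as given below, so the order depends in part on them. In this measure Cd79a was the most abundant of the 9, at 202.6 ± 56.3 TPM over all 8 libraries (SD), followed by Cd79b at 161.9 ± 34.2 and Cd22 at 77.92 ± 28.2 TPM. Cd79a exceeded Cd79b in 7 of 8 libraries, the exception being osteopontin library B (86.31 against 94.2 TPM), and Cd79b exceeded Cd22 in all 8. Ms4a1 (42.0 ± 13.0 TPM) and Blk (41.77 ± 12.6 TPM) could not be ordered, Ms4a1 being higher in 4 of 8 libraries. The same held for Pax5 (21.71 ± 7.92 TPM) and Fcer2a (20.53 ± 8.25 TPM), with Pax5 higher in 4 of 8. Cr2 (10.06 ± 6.01 TPM) and Ebf1 (7.16 ± 1.81 TPM) were lowest, and Cr2 was the higher of them in 5 of 8. For scale, the T cell genes Cd3g and Cd3e averaged 1092 and 706.6 TPM over the 8 libraries. The fewest reads behind any member were the 196 of Cr2 in osteopontin library B.

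Taking Cd79a as the yardstick within each library asks whether the other members changed relative to a B cell gene. On the log2 scale of TPM ratios, the difference between groups (osteopontin minus null) was largest for Cr2 at -0.92 and Cd22 at -0.32; without osteopontin library B these were -0.61 and -0.16. Relative to Cd79a, Cd22 measured -1.47, -1.45, -1.43 and -2.09 with osteopontin and -1.30, -1.43, -1.21 and -1.20 without. These groups overlapped only at null library 2, and the exact permutation test over the 70 arrangements gave a two-sided p of 0.0571 (the smallest it can give is 0.0286), or 0.381 adjusted over the 8 ratios. Cr2 had p = 0.143 in the same exact test (adjusted 0.381), and its ratio ranged over all libraries from -5.98 in osteopontin library B to -3.49 in null library A. The other 6 ratios differed by between -0.09 (Ms4a1) and 0.27 (Ebf1), and none of the 8 passed an adjusted p of 0.05. With reads in place of TPM the 8 differences lay between -0.27 (Cr2) and 0.19 (Cd79b). By reads Cd22 differed by -0.13 (exact permutation p = 0.429). All its osteopontin libraries, at -0.84 to -0.52, then lay within the null range of -0.89 to -0.26. The Cr2 ratio by reads ran from -4.2 in osteopontin library B to -3.24 in null library B, with null library A at -3.82.

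Transcript models bear on these TPM values. All 71 transcripts of the 9 genes matched GENCODE M21 in identifier and length. Cd79a has a single transcript, of 220 codons. For Cd79b, Cd79b-202 (228 codons) carried 85.1% of the gene's estimated reads on average, the rest falling on Cd79b-201 (288 codons). Pax5-201 (391 codons) carried 96.1% of Pax5 reads, Blk-201 (499 codons) 90.6% of Blk reads, Ms4a1-201 (291 codons) 86.9% of Ms4a1 reads and Fcer2a-201 (331 codons) 83.0% of Fcer2a reads. A retained-intron model held the rest of Blk, 9.4% of its reads on average. Cd22-203 (868 codons) carried 56.2% and Ebf1-201 (591 codons) 69.2% of the reads of their genes, so these 2 genes were divided among several models. The Cr2 transcript with the highest mean TPM, Cr2-203, is a retained-intron model of 974 bases that carried only 6.92% of Cr2 reads.

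Short models raised TPM where few reads were assigned. Transcripts under 1000 bases held on average 49.0% of Cr2 TPM with 10.6% of its reads, and 35.0% of Cd22 TPM with 3.16%. The same shares were 33.8% and 9.4% for Blk, 20.7% and 1.27% for Pax5, and 12.7% and 2.12% for Ebf1. They were 2.62% and 1.06% for Fcer2a, and 0 for Ms4a1, Cd79a and Cd79b. In null library A the 206-base model Cr2-206 had 36 reads and 11.56 of the 20.1 TPM of Cr2. Ebf1 had 461 reads in osteopontin library B, its lowest count, yet its TPM there was 8.19, the highest of the osteopontin group (5.12 to 6.92 in the other 3). In that library transcripts under 1000 bases held 15.5% of Ebf1 reads and 68.4% of its TPM. The model Ebf1-204 alone had 62 reads there and 0 in the other 7 libraries. With an offset for the deposited effective lengths, the log2 fold change of Ebf1 was -0.29. The share of a gene's TPM on its leading transcript passed the test in none of the 8 members with at least 2 transcripts, with adjusted p-values from 0.61 to 0.914 in exact permutation tests. Pax5-201 held 59.5 ± 3.24% of Pax5 TPM with osteopontin and 70.7 ± 17.6% in the null group (SD, n = 4 each), where null libraries 2 and A (81.1% and 89.9%) lay far above null libraries 1 and B (59.4% and 52.6%).

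**Figure D3:**
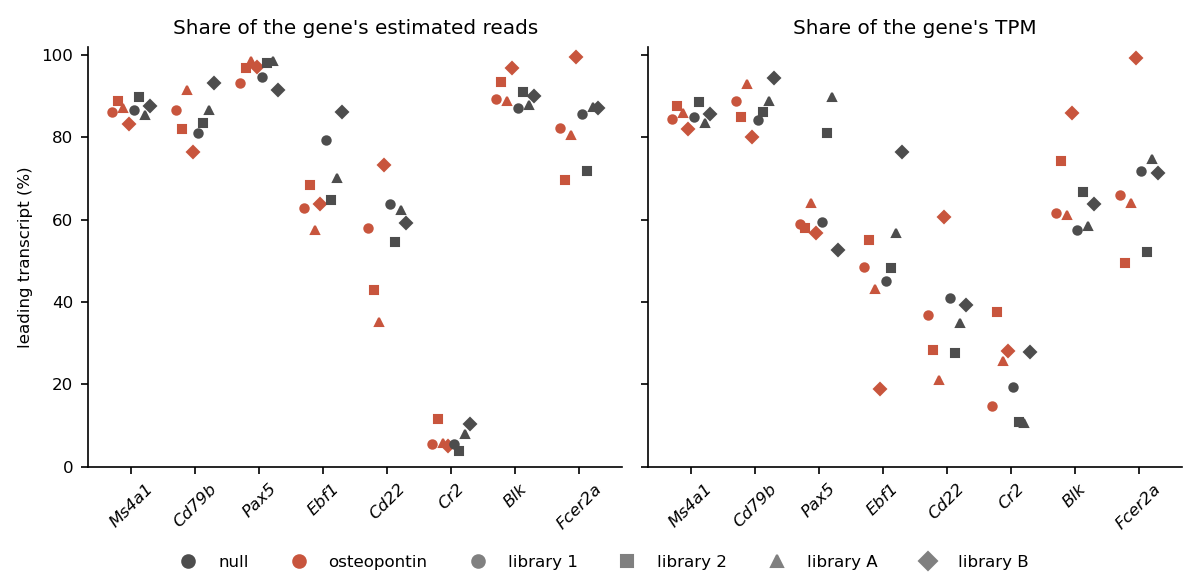
Percent of each gene's estimated reads (left) and of its TPM (right) on the transcript with the highest mean TPM, for the 8 genes with several transcripts, in each library (grey, null; red, osteopontin; shape, library name). The share of Pax5 on Pax5-201 is at least 91.6% by reads in every library but between 52.6% and 89.9% by TPM.

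Levels of the members varied together from library to library. On log2(CPM + 0.1), Pearson's r with Cd79a over the 8 libraries was 0.99 for Cd79b, 0.97 for Ms4a1 and Cd22, 0.96 for Pax5, 0.95 for Ebf1, 0.94 for Cr2 and Fcer2a and 0.75 for Blk. Spearman's rho ran from 0.79 (Blk) to 0.93 (Cd79b and Ebf1), with p-values from exact permutation, adjusted over 12 relations, of at most 0.00681 for r and 0.0372 for rho. Without the 2 libraries farthest from the median of Cd79a, osteopontin 2 and osteopontin B, r was between 0.61 (Fcer2a) and 0.91 (Cd79b). None of the 8 passed without them (adjusted exact permutation p from 0.119 to 0.245). Fewer libraries and a narrower range of Cd79a weaken this test, so the loss of calls cannot show what they rest on. With 6 libraries r was still 0.87 for Ms4a1 and 0.84 for Cd22, and the unadjusted exact permutation p was 0.0153 for Cd79b, 0.0292 for Ms4a1 and 0.0403 for Cd22. For genes outside the list, r with Cd79a was 0.42 for Ighm (rho 0.81), 0.13 for the plasma cell gene Jchain (rho -0.29), 0.14 for Cd8a (rho 0.02) and 0.08 for the summed fibroblast genes (rho -0.02). Their adjusted exact permutation p for r was between 0.208 and 0.851, and only the rho of Ighm passed (adjusted 0.0327).

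From 9620 tested genes outside the list that averaged 5 CPM or more, the 10 whose log2(CPM + 0.1) followed the summed members most closely over the 8 libraries included Irf5 (r = 0.99), Wdfy4 (0.987), March1 (0.986), B3gnt5 (0.983), Ciita (0.982), H2-Eb1 (0.981), H2-DMb2 (0.981), Ipo9 (0.979) and Plekho1 (0.975). CIITA is the master regulator of class II antigen presentation genes, H2-Eb1 and H2-DMb2 encode class II chains, and MARCH1 is a ubiquitin ligase that acts on class II molecules. Predicted, clone-named and antigen receptor segment genes were left out of this ranking. The r values describe the order of genes by likeness and were not tested. With the summed members, Siglech, a plasmacytoid dendritic cell gene, had r = 0.79 and Ptprc, which encodes CD45, r = -0.40. Siglech stood at rank 520 of the 9620 genes, so an r of that size was not particular to the list.

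Other genes that act in B cells were read from lists of their functions, and in none of these lists did edgeR call a gene in either direction. Such genes need not come from B cells alone, and the part of other cells in their levels was not tested. All 11 genes of co-receptor and proximal receptor signalling had a lower fitted level with osteopontin, with a median log2 fold change of -0.18. Osteopontin library B was the lowest library for 10 of the 11, against 3 of the 12 T cell and IEL markers. Without it 9 of the 11 signalling genes were fitted lower, with a median of -0.07. The smallest unadjusted p among them was that of Cd81 (0.029, edgeR; adjusted 1.00), a tetraspanin, at 10.86 ± 2.42 CPM with osteopontin and 15.28 ± 1.7 CPM in the null group, whereas Plcg2, the phospholipase of the pathway, had a log2 fold change of -0.01 (SE 0.08). All 13 other B cell surface, survival and homing genes were also fitted lower (median -0.32). For 11 of them osteopontin library B was lowest, and without it all 13 were still lower, with a median of -0.11. Of these Cxcr5, the receptor that guides B cells to follicles, measured between 17.1 and 22.93 CPM with osteopontin and 26.13, 23.05, 25.53 and 25.78 CPM in the null libraries, so that its groups did not overlap. Its log2 fold change was -0.32 (SE 0.14; unadjusted p 0.0377, adjusted 1.00, edgeR), and 1 of 13 genes of this list had all osteopontin libraries below all null libraries, against 1.58% of all genes.

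In the further lists genes were fitted in both directions. Of 10 other transcription regulators 8 were fitted lower (median -0.19; without osteopontin library B, 6 and -0.02), with Pou2f2 at -0.29 and Ikzf3, which T cells also express, at 0.11. Of 8 other inhibitory receptors and phosphatases 5 were lower (median -0.21; without osteopontin library B, 6 and -0.11), Ptpn6 at -0.30 (SE 0.10) having the smallest unadjusted p (0.0114; adjusted 1.00, edgeR) and Inpp5d at 0.0. Of 9 germinal centre genes 4 were lower (median 0.01; without osteopontin library B, 4 and 0.20). Among these Bcl6 stood at 61.1 ± 1.96 CPM with osteopontin and 71.17 ± 7.61 CPM in the null group, with all osteopontin libraries below all null libraries and a log2 fold change of -0.22 (SE 0.09; adjusted p 1.00, edgeR). It was 1 of 9 genes of this list with that separation, against 1.58% of all genes. Of 6 pro-B and pre-B cell genes only Dntt passed the filter on low counts, at 6.26 ± 2.24 and 8.65 ± 2.48 CPM.

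The antibody genes that plasma cells express most differed between libraries in another order than the members, a difference that was not tested. Jchain, which joins polymeric immunoglobulin and is high in plasma cells, measured 410.1, 881.5, 958.2 and 383 CPM with osteopontin and 518, 773.1, 1020 and 337.6 CPM without. It was high in libraries 2 and A of both groups and low in the B libraries of both, and its log2 fold change was -0.01 (SE 0.48). Igha, the immunoglobulin A heavy chain, was high in the same libraries, with 4793 and 5855 CPM in 2 and A of the osteopontin group and 4684 and 6612 CPM in 2 and A of the null group, against 1876 to 3132 CPM in the other 4. The log2 fold changes of Igha and Igkc were -0.03 (SE 0.47) and 0.0 (SE 0.36). Ighd, the heavy chain of naive B cells, was at 89.89 ± 22.8 CPM with osteopontin and 115.7 ± 21.5 CPM in the null group (log2 fold change -0.37, SE 0.21). Like most members, Ighd was lowest in osteopontin library B (63.19 CPM) and highest in null library B (137.5 CPM). Ighm, the heavy chain of immunoglobulin M, stood at 1467 CPM in null library B and between 781.2 and 933 CPM in the other 7 libraries (log2 fold change -0.29, SE 0.20). Of 10 tested immunoglobulin constant genes 8 were fitted lower (median -0.24) and of 10 plasma cell genes 5 (median 0.0), and none was called. Without osteopontin library B these were 6 of 11 (median -0.17) and 4 of 10 (median 0.06).

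**Figure D4:**
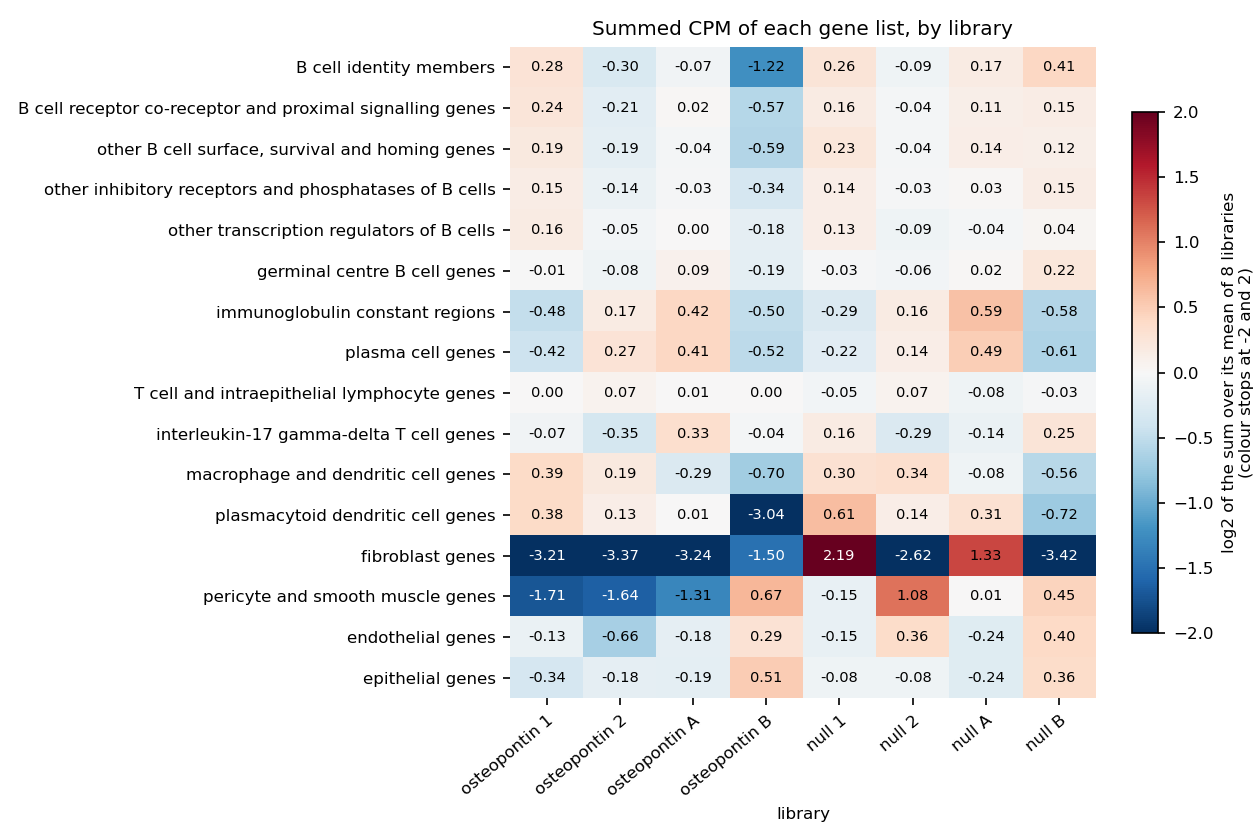
Log2 of the summed CPM of each gene list over its mean of the 8 libraries, by library (columns); colour stops at -2 and 2 and the printed numbers give the values. The members reach -1.22 in osteopontin library B, where the T cell genes are at 0.00, and the immunoglobulin and plasma cell genes are low in both B libraries, in osteopontin library 1 and, less so, in null library 1.

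Osteopontin library B differed from its group in other cell types too. Relative to the mean of the other 3 osteopontin libraries, the summed members stood at 43.2% in it, the plasma cell genes at 63.6%, the macrophage and dendritic cell genes at 56.5% and the T cell genes at 98.0%. Fibroblast genes stood at 341%, epithelial genes at 167% and endothelial genes at 151%. In that library lower B cell gene levels came with lower plasmacytoid dendritic and myeloid gene levels, and the part of these shifts in the results of the members was not tested. In null library B the plasmacytoid dendritic cell genes were also at their group's lowest sum, 70.68 CPM against 128.2 to 177.1 CPM, while the members were at their highest, 907.9 CPM. Ptprc, the gene of the sorting marker, was at 2097 ± 45.5 CPM with osteopontin and 1978 ± 86 CPM in the null group (log2 fold change 0.08, SE 0.05).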

How the data were processed

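RNA of CD45-sorted intraepithelial lymphocytes was sequenced in 8 stranded libraries, per the labels' protocols. Per the submitters' processing notes, transcripts were quantified with Salmon. Neither a Salmon version nor an index or genome build is named in the labels or file headers. The authors deposited, for each library, estimated counts and TPM for 133618 transcripts, with lengths and effective lengths per the file headers. Salmon divides reads between alike transcripts, so values of single transcripts are less certain than gene sums.

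Estimated counts were summed per gene and rounded to whole numbers; TPM were summed per gene. Groups were compared with the quasi-likelihood test of edgeR 4.0.16 (robust, two-sided, filterByExpr with a minimum count of 10, TMM scaling, Benjamini-Hochberg over 18631 genes, threshold 0.05), fitted on all 8 libraries with group as the only term. The code was run on simulated counts with the same dispersion for all genes and no library standing apart. That setting is unlike the members, so it does not measure power or error for them. All 9 members passed the filter. SE is the fold change over the square root of F. CPM are on plain library totals; TMM factors were 0.99 to 1.005. Single values were compared by exact permutation over 70 arrangements, and relations over 40320 pairings. DESeq2 1.42.0, limma 3.58.1, R 4.3.3, Python 3.11.15 and scipy 1.17.1 were used. The alternatives covered normalization, filter, tool, length offset, protein-coding transcripts, a block and left-out libraries.

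Genes outside the members were named by a rule: per list the smallest p and up to 3 of the highest mean TPM, with Ighm, Ighd, Igha, Igkc and Jchain always, and the 10 genes most alike to the summed members. Not every gene that the rule allows is printed, and some are not reported here. The likeness values of Siglech and Ptprc and the levels of Ptprc, Cxcl13 and Coch were added after they had been seen. The list counts without osteopontin library B were likewise chosen after seeing the data. The members and lists were chosen with earlier results of these data known.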

Additional observations from a re-analysis of the deposited data

Results flagged for a closer look

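In groups of 4 libraries, the gap between an extreme library and its nearest neighbour was set against the whole range of the group, and a share above Dixon's 95% critical value for 4 values was taken as standing apart. Chance gives such a gap in about 1 of 20 groups, and 52 groups were looked at. Osteopontin library B stood apart in 3 ratios to Cd79a, all taken on TPM. Its log2 TPM ratio of Ebf1 to Cd79a was -3.40, with the other osteopontin libraries between -5.21 and -4.95; by reads that ratio was -2.96, with the others between -3.36 and -3.06. Its log2 ratio of Cd22 to Cd79a was -2.09 (others -1.47 to -1.43) and that of Fcer2a was -4.20 (others -3.23 to -3.04). By reads the library lay nearer to the others, at -0.84 for Cd22 (others -0.65 to -0.52) and -3.5 for Fcer2a (others -3.02 to -2.67). In null library 2 the leading transcript held 52.1% of Fcer2a TPM, against 71.4% to 74.7% in the other null libraries.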

How the results depend on the processing

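Under 18 alternative fits, 161 of 162 member fold changes kept their direction and no member was called; the exception was Fcer2a, at 0.17 without both B libraries. The number of genes called over the whole table moved from 0 to 3 higher and 1 lower without the filter on low counts, to 21 and 59 with DESeq2, to 1 and 48 without both B libraries, and to between 0 and 2 higher and 0 and 35 lower when single libraries were left out. Same-named libraries were not treated as paired because the labels do not tie any library to an animal or a culture. The correlation of their deviations from the group means was 0.071 (1), 0.049 (2), 0.044 (A) and 0.123 (B), each osteopontin library being closest to the null library of its own name. Jchain and Igha were also high in libraries 2 and A of both groups. Whether same-named libraries share an origin was not tested. With a replicate block, 0 genes were called, the members' median log2 fold change was -0.52 and their lowest adjusted p 0.907. Blk had the smallest unadjusted p of the members with this block (0.0248, edgeR). The number of relations with Cd79a past the threshold was 0 of 8 without the 2 farthest libraries, where r was -0.84 for Jchain and -0.16 for Cd8a. With reads in place of TPM, the difference in the Ebf1 ratio to Cd79a was -0.02, that in the leading share of Pax5 0.72 and that of Cd22 -7.65 percentage points. Leaving out single libraries turned the sign of small differences that had not passed a test: the ratio of Ebf1 ran from -0.15 to 0.45, of Blk from -0.13 to 0.14 and of Fcer2a from -0.11 to 0.28, and the leading share of Ms4a1 from -1.69 to 0.16, of Cd79b from -3.78 to 0.52, of Cd22 from -6.97 to 6.30 and of Fcer2a from -7.75 to 8.88 percentage points. The cause was not tested. With 4 libraries per group, the 95% intervals of the members reach from -1.53 (Cd22) to 0.90 (Fcer2a), and the fewest reads of a member were 196 (Cr2, osteopontin library B).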
